A study of Homo sapiens with 12 samples.

Results

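The mitochondrial ribosomal protein genes described here were all protein-coding genes whose symbol starts with MRPL or MRPS followed by a digit. The rule found 78 members among the 58780 gene IDs of each file, and all 78 passed the filter of 10 counts summed over the libraries, among 26688 genes tested. Poly(A)+ RNA came from Flp-In T-REx HEK293, a line derived from human embryonic kidney, after transfection of small interfering RNAs (siRNAs) against members of the SAFB family of nuclear RNA-binding proteins. The 4 groups of 3 libraries were control (negative control siRNA), SAFB1 KD (siRNA against SAFB, whose protein is SAFB1), SLTM KD (siRNA against SLTM) and triple KD (siRNAs against SAFB, SAFB2 and SLTM together). All groups shared the line and the transfection, no allele was changed, the negative control siRNA made up the total dose in single knockdowns, and cells were collected on the second day. Each target was lowered with 1 siRNA sequence and each comparison used the same line, which limits the groups as a model of SAFB loss. Knockdown of SAFB2 alone is not analysed here.

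Mitochondria hold their own ribosomes, which translate the few proteins that the mitochondrial genome still encodes, all of them parts of the respiratory chain or the ATP synthase. The ribosome has a large subunit, which forms peptide bonds, and a small subunit, which binds the mRNA and decodes it. Its protein genes lie in the nucleus, are translated in the cytosol and are imported, some descending from bacterial ribosomal proteins and others found only in mitochondria. By role, 51 members belonged to the large subunit (MRPS30 and MRPS18A among them, despite their names) and 26 to the small subunit, while MRPS36 is no stable part of either and works with the 2-oxoglutarate dehydrogenase complex.

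Sequences that bear on the members were of 2 kinds. The first were the siRNAs, shown because letters shared between an siRNA and a 3′ UTR recur below. The sense strands run 5′ to 3′, and capitals mark bases 12 to 18, the letters that a target shares when it pairs with bases 2 to 8 (the seed) of the opposite, guide strand.
SAFB1 siRNA: ggaccaagaugAUCAGAAatt
SAFB2 siRNA: ggacggucgugAUGGAUAatt
SLTM siRNA: gcauuagaauaAUUCGUGatt
In annotated 3′ UTRs (GENCODE 44 canonical transcripts, GRCh38), the SAFB1 letters stood in 10 of 78 members (12.8%, against 16.9% of 16009 coding genes), the SAFB2 letters in 6 (7.69%, against 1605 of the coding genes) and the SLTM letters in 0 (against 2.19%). The windows of members that recur below are shown with these letters in capitals. MRPL35 held both kinds.
MRPL35, SAFB1 letters, first window: ctgaaagtatagATCAGAAgtttcacttgt
MRPL35, SAFB1 letters, second window: cccaactctccgATCAGAAtcatctgggaa
MRPL35, SAFB2 letters: atctttgcaaaaATGGATAagtacaaaact
MRPS7, SAFB1 letters: agcagttttagtATCAGAAaagatttatta
MRPS14, SAFB1 letters: tcacttcagtagATCAGAAatatgaagcac
MRPL42, SAFB1 letters, first of 3 windows: tcaataaattacATCAGAAattcaacactt
MRPL42, SAFB2 letters, first of 3 windows: gaattagcaatcATGGATAagctcaataac
MRPL19, SAFB2 letters: cccttatttttgATGGATAattttgccaga

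The second kind were promoters, from 250 bases before to 50 after the start, taken from RefSeq (build GRCh38.p14), which matched 69 of the 78 members. Both strands were searched for 3 runs of letters: CCGGAAG, the core that ETS-family factors such as GABPA bind, and longer cores of YY1 and NRF1 sites, which are the capitals in the windows of MRPL42 and MRPL45 below (4 fixed bases, any pair, then 4 fixed bases for NRF1). The runs can share letters, but matches of different kinds shared bases in 0 members. The ETS letters stood in 29 of 69 members (42.0%), against 10.7% of all 27305 promoters and 16.5% of 12730 tested coding genes. The YY1 letters stood in 13 (18.8%, against 1.28% and 2.36%), and the NRF1 letters in 9 of 69 (against 8.78% and 14.0%). A match is a description of letters, not a site shown to be bound. The windows below are a selection from members among the 10 that rose most or the 10 that fell most in triple KD, with the matched letters or their reverse complement in capitals and each sequence read along the gene's strand.
MRPL54, ETS, chr19:3762651-3762677, plus strand: ccactgacgtCTTCCGGaaacgtgcac
MRPL16, ETS, chr11:59810768-59810794, minus strand: gtgaacacaaCTTCCGGccccactgag
MRPL27, ETS, chr17:50373220-50373246, minus strand: cacgcagggcCCGGAAGtagatctcct
MRPL27, ETS, chr17:50373176-50373202, minus strand: cttttcgagaCCGGAAGtgagtgatcg
MRPL52, ETS, chr14:22829872-22829898, plus strand: gccacgcctaCTTCCGGctaccccggc
MRPS16, ETS, chr10:73252623-73252649, minus strand: ggatcatccgCTTCCGGagtcgaggtt
MRPL45, NRF1, chr17:38296969-38296998, plus strand: ttgtctccctGCGCACGCGCggccgtactc
MRPL42, YY1, chr12:93467512-93467541, plus strand: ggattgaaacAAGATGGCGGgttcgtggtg
MRPL52, YY1, chr14:22829779-22829808, plus strand: acgatgacccAAGATGGCGGagccgtgatt
MRPL32, YY1, chr7:42932142-42932171, plus strand: tacccgcgctCCGCCATCTTtacccgaaga

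Libraries held 56856228 to 75533510 counts, and replicates of a group differed beyond counting error by a biological coefficient of variation of 2.14%. Levels are in CPM, counts scaled to the TMM-adjusted size of the library. The targets fell as labelled: SAFB from 232 ± 2.27 CPM in control (SD, n = 3) to 45.3 ± 0.905 in SAFB1 KD and 38.2 ± 1.57 in triple KD, SLTM from 116 ± 1.17 to 20.5 ± 1.88 in SLTM KD and 25.01 ± 2.15 in triple KD, and SAFB2 from 126 ± 2.49 to 29.1 ± 1.12 in triple KD. Family members without a matching siRNA rose in part. In SAFB1 KD, SAFB2 (log2 fold change 0.73) and SLTM (0.26) were higher than in control. In SLTM KD, SAFB2 was higher (0.14). Of 5 genes known from HEK293 cells, VIM stood at 1070 to 1180 CPM and NEFL at 147 to 226, while PAX2, LHX1 and NEFM stayed between 1.12 and 6.89. The summed level of the 5 ran from 1290 to 1310 CPM in control, 1300 to 1340 in SAFB1 KD, 1350 to 1370 in SLTM KD and 1220 to 1240 in triple KD. NEFL, NEFM, PAX2 and LHX1 fell in triple KD (log2 fold changes -0.41, -0.48, -0.35 and -0.25). The part of this difference in the members' values was not tested. Lists of 5 markers each for differentiated kidney, leukocytes and squamous epithelium summed to at most 1.07 CPM in any library, with UMOD at 0 throughout. Fibroblast markers summed to 13.6 to 15.4 CPM, mostly COL1A1, and colon epithelium markers to 27.8 to 33.4, nearly all of it CDX2. The p-values below set differences between groups against the spread of libraries within groups, estimated over all 12 libraries in 1 fit. The labels call the 3 libraries of a group replicates.

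In control cells the members together took 5827 ± 52.7 CPM (SD, n = 3), the large subunit 3645 ± 34.6 and the small subunit 2145 ± 17.4. Compared per length, as CPM per kb of merged exons, MRPS34, a small-subunit protein found only in mitochondria, stood highest at 211. It was followed by the large-subunit genes MRPL41 (134) and MRPL51 (110), by MRPS26 of the small subunit (109) and by MRPL14 (88.2), a homologue of bacterial L14. MRPL51 and MRPS26 differed by less than their spread over the control libraries. At the other end were MRPS24 (0.187), MRPL46 (0.806), MRPL38 (0.984), MRPS28 (1.87) and MRPS22 (3.18), again per kb. Apart from MRPS22, these low genes overlap exons of another gene on their own strand, for example MRPS24 with the readthrough gene URGCP-MRPS24. Reads that fit 2 overlapping genes were not counted, but the overlaps given here are those of GENCODE 44, a later release than the study names, so the reads left out may differ. Across the members, 15 of 78 had such overlap. It covered 72.8% of the exon length of MRPL53, 69.5% of MRPL12, 41.1% of MRPL38, 35.8% of MRPS28, 23.2% of MRPS24, 11.3% of MRPL46 and 9.5% of MRPS6, and was 0 for MRPL35, MRPS7, MRPL18 and MRPL45. Counts of MRPS24 were 23 to 40 per library, and the standard error of its log2 fold change in triple KD was 0.231, several times that of better covered members such as MRPS7 (0.0238). Of 79 annotated pseudogenes of members, 15 could be tested, and the highest group mean among them was 0.87 CPM.

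Triple KD against control asks how the members stand when the whole SAFB family is lowered. MRPL35, a large-subunit protein descended from bacterial L35, fell to 41.6% of its control level, and no other member moved as far. Next came MRPS7, MRPS6, MRPL18 and MRPL42, which fell to between 71.8% and 78.3% of control, while MRPL45, which sits at the peptide exit of the large subunit, rose to 131%. By edgeR's quasi-likelihood test with Benjamini-Hochberg adjustment over all 26688 genes, 17 members were higher and 29 lower at an adjusted p under 0.05. Over all genes the shares were 19.4% higher and 20.9% lower (40.3% in all). Coding genes averaging 10 CPM or more, a set closer to the members in level, gave 34.0% higher and 37.3% lower (71.2% in all) against the members' 21.8% and 37.2%, so the share that fell was near this background. The members' median log2 fold change was -0.042, against -0.011 for those coding genes. With upper-quartile scaling, which moved the median of all genes by 0.033, 26 members were higher and 23 lower, with a median of -0.009. Libraries of triple KD and control did not overlap for 57 members (73.1%), against 48.1% of all genes. No such share was taken for coding genes averaging 10 CPM or more, here or below. On overlap, the members were thus not compared with genes of like level. In bulk RNA, less transcript per cell and fewer cells with the transcript cannot be told apart, here or below.

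**Figure D1:**
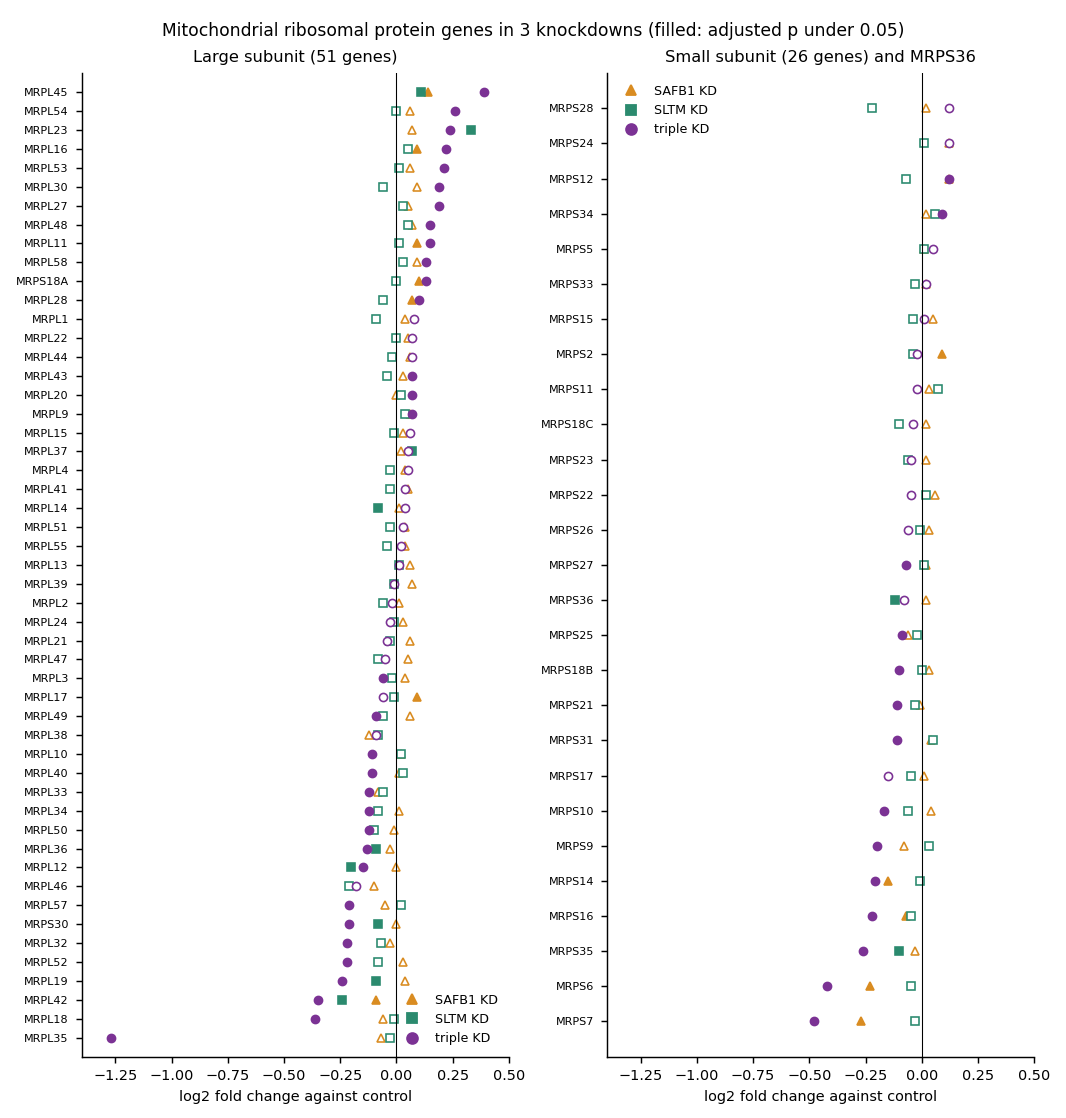
Log2 fold change against control (x axis) of each member (y axis) in SAFB1 KD (triangles), SLTM KD (squares) and triple KD (circles), for the large subunit (left) and the small subunit with MRPS36 (right); filled symbols have an adjusted p under 0.05. MRPL35 lies alone at -1.27 in triple KD, with both single knockdowns near 0.

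By subunit, the calls split as follows. Of 51 large-subunit genes, 15 were higher and 17 lower, with a median of 0.015, whereas of 26 small-subunit genes 2 were higher and 12 lower, with a median of -0.061. MRPS12, a homologue of the bacterial decoding protein S12, and MRPS34 were the 2 that rose. As shares, 29.4% of large-subunit genes were higher and 33.3% lower, and 7.69% and 46.2% of small-subunit genes. Of coding genes averaging 10 CPM or more, 34.0% were higher and 37.3% lower, and of all genes 19.4% and 20.9%. The large subunit lay near the coding shares, and the small subunit differed from them most in its few rises. The summed small-subunit level was 2136, 2134 and 2165 CPM in the control libraries and 2020, 2014 and 2038 in triple KD. Every triple KD library thus lay below every control library. The sum weighs a few genes heavily, with means going from 147.3 to 105.8 CPM for MRPS7, 114.1 to 95.1 for MRPS35 and 131.5 to 113.1 for MRPS16. Of the 26 small-subunit genes, 19 had log2 fold changes below 0 and 7 above. For the large subunit the sums were 3615, 3636 and 3683 CPM in control and 3571, 3561 and 3643 in triple KD, and the groups overlapped. With upper-quartile scaling the small-subunit genes stood at 3 higher and 9 lower (median -0.028) and the large-subunit genes at 23 and 14 (median 0.048). The large-subunit median was below 0 without control replicate 1 (-0.002), control replicate 2 (-0.019) or triple KD replicate 3 (-0.002). No test of the difference between subunits was made, since the members of a subunit share libraries. Members with bacterial homologues (9 higher and 17 lower of 46, median -0.027) and those specific to mitochondria (8 and 12 of 32, median -0.054) split more alike.

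**Figure D2:**
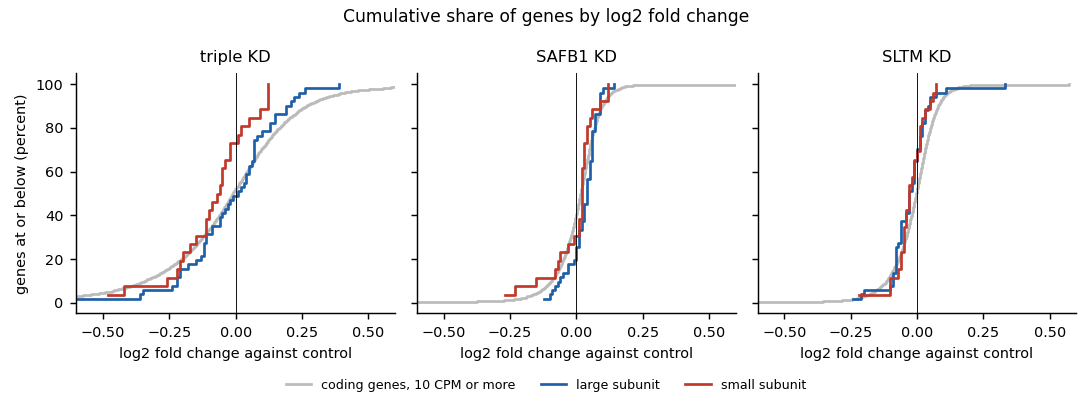
Cumulative share of genes (y axis, percent) by log2 fold change against control (x axis) in triple KD, SAFB1 KD and SLTM KD, for 9735 coding genes averaging 10 CPM or more (grey), 51 large-subunit members (blue) and 26 small-subunit members (red); MRPL35 lies beyond the left edge in triple KD. In triple KD the small-subunit curve runs left of the large-subunit curve over most of its range, with medians of -0.061 and 0.015.

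MRPL35 (chromosome 2, 86199355 to 86213790, plus strand, GRCh38) stood at 54.9, 54.9 and 54.4 CPM in the control libraries, at 52.6, 51.5 and 51.8 in SAFB1 KD, at 54.7, 53.9 and 51.6 in SLTM KD and at 23.6, 22.6 and 22.1 in triple KD. All 3 triple KD libraries lay below every library of the other groups, at a mean of 43.8% of SAFB1 KD and 42.6% of SLTM KD. The log2 fold change against control was -1.27 ± 0.034 (SE, adjusted p = 7.23e-40). Against SAFB1 KD it was -1.19 ± 0.0345 (adjusted p = 6.82e-38) and against SLTM KD -1.23 ± 0.0345 (adjusted p = 8.92e-39). Neither single knockdown passed the test, at -0.07 ± 0.0307 (adjusted p = 0.133) in SAFB1 KD and -0.03 ± 0.0307 (adjusted p = 0.612) in SLTM KD. Within 50 kb, the opposite-strand genes IMMT, an organiser of the inner membrane's cristae, and REEP1, a shaper of the endoplasmic reticulum, moved little in comparison. IMMT rose from 170.5 ± 1.87 to 182.3 ± 1.63 CPM (log2 fold change 0.10) and REEP1 fell from 24.2 ± 0.74 to 21.2 ± 0.895 (-0.19). No RefSeq promoter was matched for MRPL35. Its 3′ UTR holds the SAFB1 letters at 2 places and the SAFB2 letters at 1, and the part of these letters in its level was not tested.

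Among the small-subunit genes, MRPS7, a homologue of bacterial S7, which nucleates assembly of the head of the subunit, fell in 2 of the 3 knockdowns. It stood at 145.5, 148 and 148.5 CPM in control, at 123, 121.5 and 121 in SAFB1 KD, at 145, 142 and 148 in SLTM KD and at 109, 103 and 106 in triple KD. The SAFB1 KD and triple KD libraries lay below every control library, and those of SLTM KD overlapped them. The log2 fold change was -0.48 ± 0.0238 in triple KD (SE, adjusted p = 3.36e-26) and -0.27 ± 0.0235 in SAFB1 KD (adjusted p = 2.79e-14), and triple KD was lower than SAFB1 KD by a further step (-0.20, adjusted p = 1.59e-10). MRPS6, a homologue of bacterial S6, went the same way, with 38.7, 39.7 and 40.0 CPM in control, 33.4, 32.7 and 35.2 in SAFB1 KD and 30.3, 29.5 and 28.6 in triple KD. These 3 groups did not overlap. Its log2 fold changes were -0.42 ± 0.0357 (adjusted p = 5.92e-16) in triple KD and -0.23 ± 0.0351 (adjusted p = 1.82e-06) in SAFB1 KD, with the limit that its exons overlap SLC5A3 in part on the same strand. Next to MRPS7, GGA3 starts 689 bases away on the opposite strand and was not called (64.1 ± 1.31 CPM in control, 65.9 ± 0.36 in triple KD).

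Other small-subunit genes fell by less. MRPS35 went from 115, 113 and 115 CPM in control to 94.0, 96.9 and 94.4 in triple KD (log2 fold change -0.26, adjusted p = 1.35e-14), with no overlap. MRPS16, a homologue of bacterial S16, went from 128, 132 and 134 CPM to 114, 111 and 115 (-0.22, adjusted p = 1.89e-11). MRPS14, a homologue of bacterial S14, went from 47.6, 47.1 and 47.3 CPM to 41.4, 40.1 and 41.3 (-0.21, adjusted p = 4.96e-08). In each case all triple KD libraries lay below all control libraries. MRPS9, MRPS10, MRPS21, MRPS31, MRPS18B, MRPS25 and MRPS27 fell by log2 fold changes between -0.20 and -0.07.

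Among the large-subunit genes, MRPL18, a homologue of bacterial L18, stood at 92.9, 93.3 and 91.8 CPM in control and at 70.3, 72.5 and 73.2 in triple KD. The groups did not overlap, and the log2 fold change was -0.36 ± 0.0261 (SE, adjusted p = 9e-19). It shares its promoter region with TCP1, a subunit of the cytosolic chaperonin, which starts 109 bases away on the opposite strand and fell less, from 619 ± 4.94 to 569 ± 7.75 CPM (-0.12, adjusted p = 5.99e-08). MRPL42, specific to mitochondria, was the only member that fell in all 3 knockdowns. It stood at 145, 143 and 143 CPM in control, at 139, 135 and 130 in SAFB1 KD, at 124, 125.0 and 116 in SLTM KD and at 113.5, 114 and 109.9 in triple KD. All 3 knockdown groups lay below control, and the log2 fold changes were -0.35 ± 0.0256 in triple KD (adjusted p = 1.47e-18), -0.24 ± 0.0256 in SLTM KD (adjusted p = 2.09e-10) and -0.09 ± 0.0253 in SAFB1 KD (adjusted p = 0.01). The call in SAFB1 KD did not hold when control replicate 1 (adjusted p = 0.0506) or replicate 3 of SAFB1 KD (adjusted p = 0.127) was left out.

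MRPL19, a homologue of bacterial L19, went from 81.2, 84.8 and 83.4 CPM in control to 71.4, 70.2 and 69.2 in triple KD (log2 fold change -0.24, adjusted p = 1.42e-11). MRPL52, specific to mitochondria, went from 67.0, 67.2 and 69.5 CPM to 57.8, 58.7 and 58.6 (-0.22, adjusted p = 2.27e-09). MRPL32, whose protein is matured by the m-AAA protease, went from 59.6, 60.6 and 61.5 CPM to 51.6, 52.7 and 52.0 (-0.22, adjusted p = 1.41e-08). None of these 3 genes had overlapping groups. The proteasome gene PSMA2, which starts 191 bases from MRPL32 on the other strand, fell as well (7.68 ± 0.508 to 6.83 ± 0.301 CPM, -0.18, adjusted p = 0.027), as did DNAJC9-AS1 beside MRPS16 (2.74 ± 0.308 to 2.26 ± 0.17 CPM, -0.28, adjusted p = 0.0449). SLC7A7 beside MRPL52, MRPS35-DT beside MRPS35 and a further neighbour of MRPL32 reached at most a mean of 0.31 CPM in any group and were not called.

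**Figure D3:**
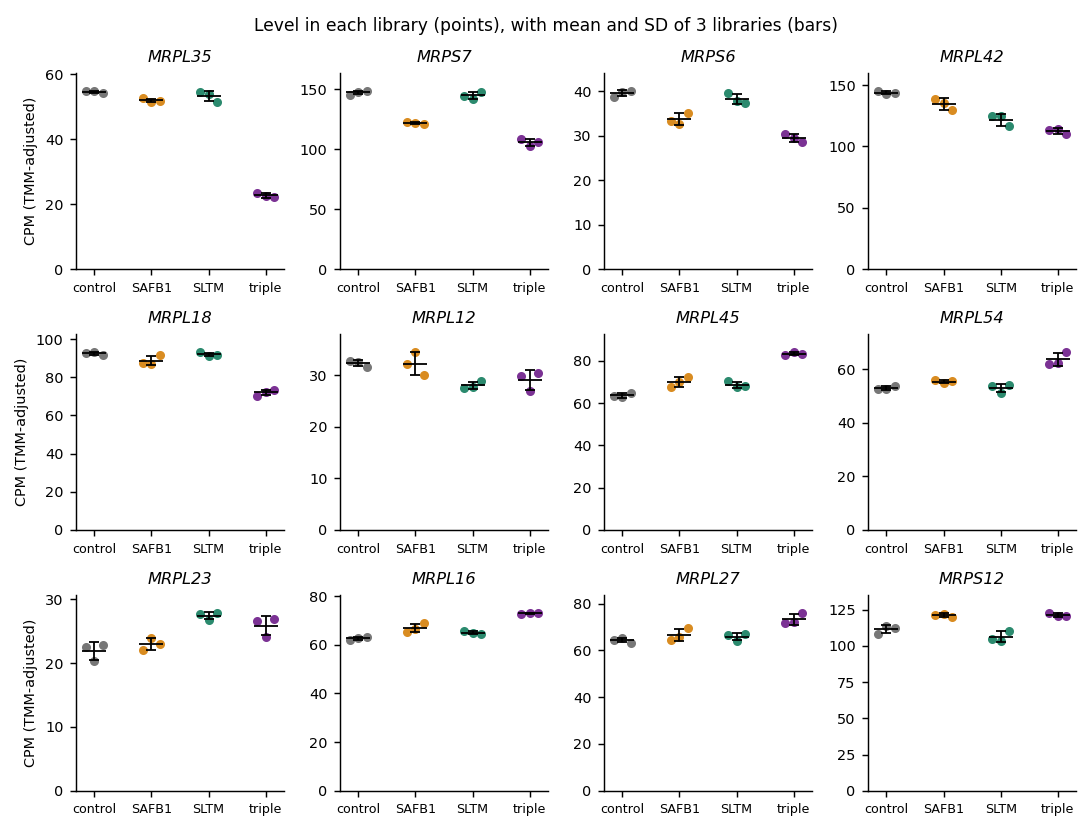
Level in CPM (y axes, each from 0 and with its own scale) of 12 members in the 4 groups (x axes); points are libraries, bars are means with SD of 3. MRPL35 drops to 22.8 CPM in triple KD alone, whereas MRPS7, MRPS6 and MRPL42 are lower in a single knockdown as well.

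Of the members that rose, MRPL45 (chromosome 17, 38297023 to 38323217, plus strand) rose most. It stood at 63.2, 62.9 and 64.9 CPM in control, at 67.5, 70.0 and 72.5 in SAFB1 KD, at 70.4, 67.7 and 68.1 in SLTM KD and at 82.6, 84.2 and 83.5 in triple KD. Every knockdown library lay above every control library, and the log2 fold changes were 0.39 ± 0.0278 in triple KD (adjusted p = 5.71e-19), 0.14 ± 0.0282 in SAFB1 KD (adjusted p = 0.000396) and 0.11 ± 0.0284 in SLTM KD (adjusted p = 0.0052). The SLTM KD call was lost without control replicate 2 (adjusted p = 0.0577) or SLTM KD replicate 1 (adjusted p = 0.0668). MRPL45 was higher in triple KD than in SAFB1 KD (0.25, adjusted p = 1.29e-11) or in SLTM KD (0.28, adjusted p = 5.24e-13).

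MRPL54, specific to mitochondria, stood at 52.6, 52.8 and 53.8 CPM in control and at 62.0, 62.5 and 66.5 in triple KD (log2 fold change 0.26, adjusted p = 3.56e-11). MRPL16, a homologue of bacterial L16 at the peptidyl transferase centre, went from 62.0, 62.9 and 63.2 CPM to 72.8, 73.2 and 72.9 (0.22, adjusted p = 5.03e-10). MRPL27, a homologue of bacterial L27, went from 64.6, 65.1 and 63.3 CPM to 71.9, 72.0 and 76.1 (0.19, adjusted p = 1.49e-07). Groups did not overlap for any of the 3. EME1, a subunit of a DNA structure-cutting nuclease that starts 13 bases from MRPL27 on the opposite strand, rose too (24.0 ± 1.57 to 28.2 ± 0.582 CPM, 0.24, adjusted p = 1.6e-06).

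MRPL30, a homologue of bacterial L30, rose from 50.2 ± 0.696 to 57.1 ± 1.38 CPM (log2 fold change 0.19, adjusted p = 1.34e-06), and MITD1, 94 bases away on the other strand, from 14.3 ± 0.191 to 15.7 ± 0.353 (0.14, adjusted p = 0.0187). PELI3 beside MRPL11 was not called, at 8.43 ± 0.107 CPM in control and 7.74 ± 0.204 in triple KD (-0.12, adjusted p = 0.112). APBA3 beside MRPL54 was not called either, at 17.9 ± 0.933 and 19.1 ± 0.34 (0.09, adjusted p = 0.0957). SARS2, beside the risen MRPS12, was higher in triple KD (0.31, adjusted p = 1.92e-05). In single knockdowns, EME1 was higher in SLTM KD (0.15, adjusted p = 0.011), where MRPL27 was not called. APBA3 was higher in SAFB1 KD (0.15, adjusted p = 0.0148), where MRPL54 was not called. MITD1 and PELI3 were not called in either single knockdown. The levels of neighbours of the remaining risen members, such as MRPS34, are not given here. Smaller rises were those of MRPL48 (0.15), MRPL11 (0.15) and MRPL58 (0.13), the last a peptidyl-tRNA hydrolase built into the large subunit that frees stalled chains. MRPL53, with few countable reads (205 to 323 per library), rose from 3.92 ± 0.12 to 4.54 ± 0.218 CPM (0.21, adjusted p = 0.0408). That call was lost without any 1 of control replicates 1, 2 and 3 or triple KD replicates 2 and 3 (adjusted p between 0.0582 and 0.132), and also with DESeq2 (0.0749), limma-voom (0.0536) or no count filter (0.0745).

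SAFB1 KD against control asks what the SAFB siRNA alone does, with SAFB2 and SLTM higher as given above. Beside MRPS7 and MRPS6 above, MRPS14 fell, and MRPL45 and MRPS12 rose. In all, 8 members were higher and 5 lower, 16.7% together. Of all genes 5.04% were higher and 4.62% lower (9.66% in all), and of coding genes with at least 10 CPM 11.9% and 8.4% (20.3%). The members' median log2 fold change was 0.029, against 0.016 for those coding genes, and 25 members (32.1%) had libraries that did not overlap control, against 25.2% of all genes. MRPS14 stood at 43.1, 42.6 and 42.4 CPM in SAFB1 KD, below its 47.6, 47.1 and 47.3 in control (log2 fold change -0.15 ± 0.0309, adjusted p = 0.000433). MRPS12, beside the seryl-tRNA synthetase gene SARS2 on the opposite strand, stood at 122, 122 and 119.9 CPM, above its 108, 114 and 112 in control (0.12 ± 0.0249, adjusted p = 0.000371), and at 123, 121 and 120.4 in triple KD (0.12, adjusted p = 3.92e-05). Both genes thus kept apart from control in every library.

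MRPS18A (0.10, adjusted p = 0.0173), MRPL16 (0.09, adjusted p = 0.0199) and MRPS2 (0.09, adjusted p = 0.00316), a homologue of bacterial S2, rose in SAFB1 KD, and MRPS16 fell (-0.07, adjusted p = 0.0447). These calls did not hold under every setting. With no count filter and every library kept, MRPS18A (adjusted p = 0.0583) and MRPL16 (0.0686) lost theirs. MRPS18A lost its call without any 1 control or SAFB1 KD replicate (adjusted p between 0.0577 and 0.113), MRPL16 without control replicate 1, 2 or 3 or SAFB1 KD replicate 2 or 3 (0.0603 to 0.15), MRPS2 without control replicate 2 (0.0876), and MRPS16 without control replicate 2 or 3, SAFB1 KD replicate 1 or 2 or SLTM KD replicate 1 (0.0534 to 0.145). The count of higher members was 3 with no count filter. It was 3, 2 and 4 without control replicates 1, 2 and 3, 5 and 3 without SAFB1 KD replicates 2 and 3, and 5 without SLTM KD replicate 2 or triple KD replicate 1 or 2, and the count of lower members was 8 without SLTM KD replicate 3.

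Some of the fallen members held siRNA letters in their 3′ UTRs, as shown above. In SAFB1 KD, 3 of 10 members with the SAFB1 letters were lower (MRPS7, MRPS14 and MRPL42), against 2 of 62 members without them and at least 10 CPM (MRPS6 and MRPS16). Of coding genes at that level, 18.3% of 1848 with the letters and 6.08% of 7878 without were lower. In triple KD, 6 of 10 members with the SAFB1 letters and 4 of 6 with the SAFB2 letters were lower, against 47.6% and 51.7% of coding genes with them and 34.9% and 35.5% without. The shares where the matching siRNA was absent were as follows. In SLTM KD, 18.7% of coding genes with the SAFB1 letters were lower against 12.3% without. In the same group, 232 of 1107 with the SAFB2 letters were lower against 12.6% without. In SAFB1 KD, 12.2% with the SAFB2 letters were lower against 7.92%. Median log2 fold changes of coding genes with and without the SAFB1 letters were -0.016 and 0.023 in SAFB1 KD, and -0.014 and 0.0 in SLTM KD. For members in SLTM KD the counts were 1 of 10 with the SAFB1 letters against 7 of 62, and 2 of 6 with the SAFB2 letters against 6 of 66. The 4 with SAFB2 letters that fell were MRPL19, MRPL35, MRPL42 and MRPS31. MRPL58 held the SAFB1 letters and rose in triple KD. Members with letters had 3′ UTRs from 247 bases in MRPS31 to 6924 in MRPL19 and 14996 in MRPL42. A longer 3′ UTR has more places for such letters, and genes with and without them were not matched for length. The part of these letters in the members' changes was not tested.

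SLTM KD against control asks what the SLTM siRNA alone does, with SAFB2 higher as given above. MRPL23, a homologue of bacterial L23 at the exit of the peptide tunnel, rose, whereas MRPL42 and MRPL12, a homologue of the bacterial stalk protein L7/L12, fell. In all 3 members were higher and 8 lower, 14.1% together. Of all genes 3.6% were higher and 5.65% lower (9.26% in all), and of coding genes with at least 10 CPM 6.64% and 13.5% (20.1%). The median of the members was -0.027, against -0.002 for those coding genes, and 20 members (25.6%) did not overlap control, against 23.9% of all genes. With upper-quartile scaling the split was 4 higher and 3 lower and the median -0.008. MRPL23 stood at 22.5, 20.2 and 22.9 CPM in control, at 27.7, 26.8 and 27.9 in SLTM KD and at 26.6, 24.1 and 26.9 in triple KD. Both of these groups lay above control, and the log2 fold change was 0.33 ± 0.0439 in SLTM KD (adjusted p = 7.69e-08) and 0.24 ± 0.0439 in triple KD (adjusted p = 5.07e-06). In SAFB1 KD it was not called (22.1, 23.9 and 22.9 CPM), and the direct test put SAFB1 KD below SLTM KD (-0.26, adjusted p = 1.01e-05).

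MRPL12 stood at 32.7, 32.6 and 31.6 CPM in control and at 27.6, 27.7 and 28.8 in SLTM KD, with no overlap (log2 fold change -0.20 ± 0.0415, adjusted p = 0.000287). In GENCODE 44 another gene on its strand overlaps 69.5% of its exon length, and reads there may be missing from its counts. MRPS35 (-0.10, adjusted p = 0.00214), MRPS36 (-0.12, adjusted p = 0.036), MRPL36 (-0.09, adjusted p = 0.0473), MRPL19, MRPL14 and MRPS30 fell by less (of these, the libraries of MRPS36 overlapped control), and MRPL37 rose (0.07, adjusted p = 0.032). MRPL37 lost its call without any 1 control replicate, SLTM KD replicate 1 or 3, SAFB1 KD replicate 1 or triple KD replicate 1 or 2 (adjusted p between 0.0577 and 0.241). MRPS36 lost it without control replicate 2 or 3 or SLTM KD replicate 2 or 3 (0.0541 to 0.189), and MRPL36 without control replicate 1 or 3 or SLTM KD replicate 1 or 2 (0.0631 to 0.294). MRPS36 and MRPL36 also lost their calls with upper-quartile scaling (adjusted p = 0.092 and 0.142), DESeq2 (0.0536 and 0.068), limma-voom (0.0585 and 0.0723) or a fit of only the libraries compared (0.0505 and 0.0618). MRPL36 lost its call with RLE factors (0.0523) and filterByExpr (0.0641) as well, and MRPL37 with no count filter (0.104). The count of lower members was 4 without control replicate 3, and that of higher members was 1 without control replicate 2 or SLTM KD replicate 1.

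Tested against each other, the 2 single knockdowns differed for 25 members that were higher in SAFB1 KD and 5 that were lower, 38.5% in all. Of all genes 9.27% were higher and 6.78% lower (16.0% in all), and of coding genes with at least 10 CPM 22.6% and 10.8% (33.4%). The median log2 difference was 0.061, against 0.023 for those coding genes, and 43 members (55.1%) did not overlap, against 28.3% of all genes. Of the called members, MRPL12 (0.21), MRPS12 (0.19), MRPL30 (0.15) and MRPL42 (0.14) were highest in SAFB1 KD relative to SLTM KD, and MRPL23 (-0.26), MRPS7 (-0.25), MRPS6 (-0.18) and MRPS14 (-0.14) were lowest. MRPS28, at 3.46 and 2.92 CPM, differed by 0.24 and was not called (adjusted p = 0.0731). The summed large-subunit level was 3703, 3703 and 3760 CPM in SAFB1 KD and 3592, 3540 and 3609 in SLTM KD, with no overlap. The split was 14 higher and 8 lower with upper-quartile scaling, and the count of higher members was 14 without SLTM KD replicate 2.

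Triple KD was then set against each single knockdown. Against SAFB1 KD, 8 members were higher and 35 lower, 55.1% in all. Of all genes 16.2% were higher and 18.6% lower (34.9% in all), and of coding genes with at least 10 CPM 27.5% and 37.6% (65.1%). The members' median was -0.061, beside -0.025 for those coding genes. The libraries of 46 members (59.0%) did not overlap, against 43.2% of all genes. With upper-quartile scaling the split was 14 higher and 24 lower, and 5 were higher without SAFB1 KD replicate 2. Of 26 small-subunit genes, 1 was higher (MRPS34) and 14 lower. Against SLTM KD, 18 members were higher and 22 lower, 51.3%. Of all genes 17.5% were higher and 18.8% lower (36.3% in all), and of those coding genes 33.5% and 32.6% (66.1%), and the medians were 0.005 and 0.003. Here 48 members (61.5%) did not overlap, against 44.1% of all genes, the large subunit split into 16 higher and 10 lower, and the small subunit into 2 and 12. These comparisons share the triple KD libraries with each other and with the comparison against control.

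The promoter letters were distributed unevenly over the triple KD calls. Of 16 risen members with a promoter in RefSeq, 13 held the ETS letters, against 8 of 27 that fell and 8 of 26 not called. Among coding genes with at least 10 CPM the shares were 22.4% of those that rose, 19.7% of those that fell and 23.5% of those not called. The 29 members with the letters had a median log2 fold change of 0.02 (range -0.22 to 0.26) and the 40 without a median of -0.08 (range -0.48 to 0.39). The risen members with the letters included MRPL54, MRPL16, MRPL27, MRPL30, MRPL53, MRPL48, MRPL58 and both risen small-subunit genes, and the 3 without were MRPL45, MRPL11 and MRPL9. With upper-quartile scaling, 14 of the 29 with the letters were higher and 6 lower, against 10 and 15 of the 40 without. The number of risen members without the letters was 3 but went to 8 with RLE factors, 9 with filterByExpr, 8 in a fit of only the libraries compared, 7 with the replicate block, 6 with DESeq2 and 5 without control replicate 3 or triple KD replicate 2, and to 2 with no count filter or without triple KD replicate 3. The median of members with the letters ranged from -0.002, without triple KD replicate 3, to 0.056 with upper-quartile scaling.

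YY1 letters were found in 1 of the 16 that rose (MRPS18A), 8 of the 27 that fell and 4 of the 26 not called, against 3.52%, 3.07% and 3.73% of the coding genes. The 13 members with them had a median of -0.13 and the 56 without -0.02. NRF1 letters were found in 2, 3 and 4. In SAFB1 KD, 4 of 29 members with ETS letters were higher and 1 lower, beside 4 and 4 of the 40 without. In SLTM KD 0 of the 29 were called, beside 2 higher and 7 lower of the 40. With YY1 letters 3 of 13 were lower in SLTM KD, beside 4 of 56 without. Of coding genes with at least 10 CPM, 11.9% were higher and 8.4% lower in SAFB1 KD, and 6.64% and 13.5% in SLTM KD. Over all genes these shares were 5.04% and 4.62%, and 3.6% and 5.65%. The letters were chosen with results of these data known, so the counts are a description.

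**Figure D4:**
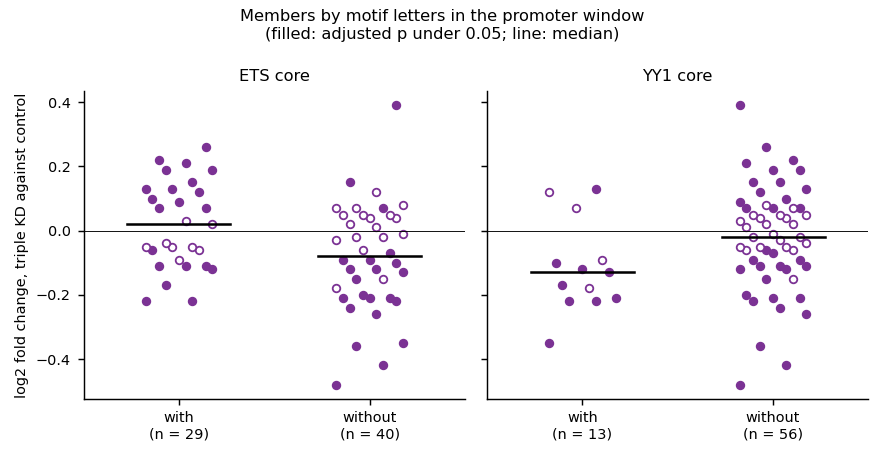
Triple KD log2 fold change from control (y axis) of the 69 members with a RefSeq promoter, split by whether the window holds the ETS letters (left) or the YY1 letters (right); filled points have an adjusted p under 0.05 and lines are medians. Members with ETS letters have a median of 0.02 and those without -0.08, with wide overlap.

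In structure, members were compact. Their median gene span was 11940 bases against 32780 over tested coding genes, their merged exons 2544 against 5117 bases, and their canonical transcripts had 5 exons against 9. An opposite-strand gene started within 1 kb for 33 of 78 members (42.3%, against 27.5%). By triple KD call these were 8 of the 17 that rose, 16 of the 29 that fell and 9 of the 32 not called. The split by call is not given for coding genes, so it is a description. MRPL46 and MRPS11 are such neighbours of each other, and neither was called in triple KD. A gene nested in a member on its own strand was annotated for 7 (8.97%, against 19.2%), of which 0 rose and 5 fell. Of coding genes averaging 10 CPM or more, 34.0% rose and 37.3% fell. No share is given for coding genes with a nested gene, so the split of the 7 is a description. The purine-rich word GAAGAA occurred 0.439 times per kb of gene span, introns included, in the median member and 0.452 in the median coding gene. Over the 78 members, which share libraries, the log2 fold change in triple KD had a Spearman correlation of -0.06 with gene span, -0.20 with exon length, -0.05 with GAAGAA density and -0.04 with mean CPM.

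The rest of the mitochondrial translation system was described from lists of its genes. In triple KD, 34.0% of coding genes averaging 10 CPM or more were higher and 37.3% lower, and of all genes 19.4% and 20.9%. List counts here and in the following paragraphs are read beside these shares. Of 7 genes with other symbols whose products are part of the mitoribosome or act on it, 3 were higher in triple KD (the nucleotide-binding small-subunit protein DAP3, the large-subunit protein GADD45GIP1 and OXA1L, an inner-membrane insertase that docks on the ribosome) and 1 lower (MPV17L2, an assembly factor), within log2 fold changes of -0.16 to 0.15. Of 30 assembly and rRNA modification genes, 11 were higher and 9 lower. ERAL1, a chaperone of the small subunit's 12S rRNA, fell (-0.42, adjusted p = 3.16e-23), as did GTPBP10 (-0.33) and FASTKD2 (-0.32), which act on the large subunit and its 16S rRNA, while NGRN rose (0.43). Translation factors split 6 and 6 of 17 (35.3% each), also near those shares. MTFMT, which formylates the initiator methionine, fell from 21.9 ± 0.782 to 12.8 ± 0.587 CPM (-0.78 ± 0.0461 SE, adjusted p = 1.72e-22), and PDF, which removes the formyl group, rose from 4.41 ± 1.08 to 7.56 ± 0.616 CPM (0.79 ± 0.0974, adjusted p = 3.95e-10).

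Of 20 mitochondrial aminoacyl-tRNA synthetases, 7 were higher and 9 lower. IARS2, for isoleucine, fell from 272 ± 0.537 to 179 ± 1.87 CPM (log2 fold change -0.60, adjusted p = 2.21e-33), PARS2 and HARS2 fell (both -0.37) and SARS2 rose (0.31). Among 23 genes of mtDNA expression and maintenance, 3 were higher and 11 lower, including TFAM, which packages mtDNA and starts its transcription (-0.28), and the mitochondrial RNA granule protein GRSF1 (-0.38). Import genes split 5 and 10 of 31 (16.1% and 32.3%). The outer-membrane receptor TOMM20 rose from 242 ± 1.97 to 496 ± 8.56 CPM (1.03, adjusted p = 2.17e-47), and TIMM17A, a channel subunit of the inner membrane, fell (-0.51). Stress response genes split 2 and 8 of 22 (9.09% and 36.4%), with the matrix protease LONP1 higher (0.63) and the transcription factor ATF5 lower (-0.63).

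Of 11 regulators of nuclear genes for mitochondria, 5 were higher (45.5%) and 4 lower (36.4%), against 34.0% and 37.3% of coding genes averaging 10 CPM or more. GABPA, an ETS-family factor, stood at 71.3 ± 3.89 CPM in control and 95.8 ± 0.456 in triple KD (log2 fold change 0.43 ± 0.0315 SE, adjusted p = 2.46e-18), was not called in SAFB1 KD (0.02, adjusted p = 0.83) and fell in SLTM KD (-0.14, adjusted p = 0.00143). MYC (-0.35) and ESRRA (-0.27) fell in triple KD. The 13 mRNAs that mitoribosomes translate were all higher in triple KD, by 0.17 to 0.68 with a median of 0.46, against 10 higher and 1 lower in SLTM KD and 2 higher in SAFB1 KD. MT-ND1, for example, went from 1246 ± 46.4 to 2001 ± 118 CPM. All 13 were also called higher under each of the 20 other settings tried. Of coding genes averaging 10 CPM or more, 6.64% were higher in SLTM KD and 11.9% in SAFB1 KD. In poly(A)-selected RNA these values rest on mitochondrial tails as well as on transcript amount, which cannot be told apart.

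**Figure D5:**
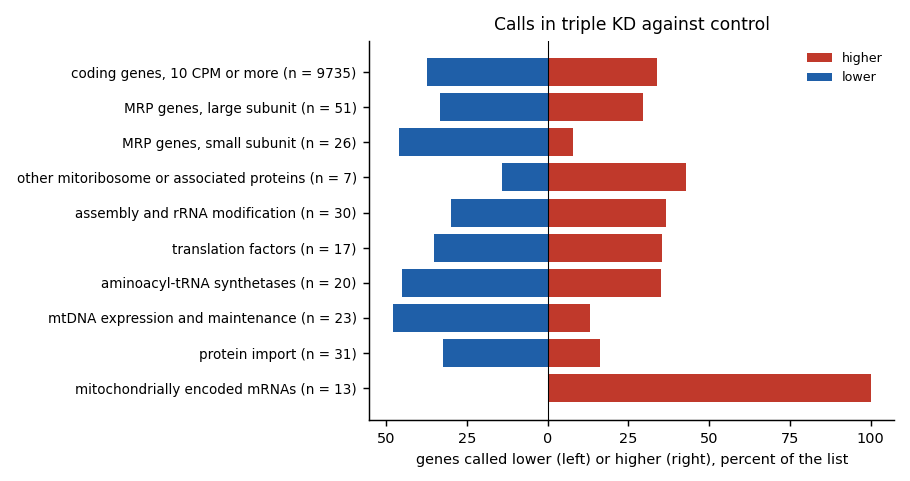
Percent of each list (y axis, with the number of genes tested) called lower (blue, to the left) or higher (red, to the right) in triple KD against control. Small-subunit members lean to lower (46.2% against 7.69%), large-subunit members are nearly even (33.3% and 29.4%), and the 13 mitochondrially encoded mRNAs were all higher. Of coding genes averaging 10 CPM or more, 37.3% were lower and 34.0% higher.

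Of the pseudogenes of members, 1 of 15 tested was called in triple KD, against 40.3% of all genes. MRPL15P1 was at 0 in all 3 control libraries and at 0.0652 ± 0.0346 CPM in triple KD, so no fold is given. None was called in SAFB1 KD or SLTM KD against control (9.66% and 9.26% of all genes were). MRPL40P1 was higher in triple KD than in SAFB1 KD (0.0962 ± 0.0577 and 0.0152 ± 0.0153 CPM, adjusted p = 0.0306). Against SLTM KD, MRPL15P1 was higher in triple KD (adjusted p = 0.0348). MRPL35P3 was lower there (0.0107 ± 0.00935 and 0.0958 ± 0.0615 CPM, adjusted p = 0.0144).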

How the data were processed

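Per the labels and the study's methods, RNA of HEK293 cells was poly(A)-selected in 2 rounds, made into stranded libraries, trimmed and aligned to GRCh38 with STAR 2.7.9a. The deposited values are the authors' raw counts of uniquely placed, reverse-stranded reads per gene, 1 file per library, neither normalised nor pooled. Reads that fit more than 1 place or more than 1 gene on a strand are absent. Symbols and coordinates came from GENCODE 44 on the same build, which matched 58207 of 58780 IDs (99.0%).

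Counts were fitted with edgeR 4.0.16 (R 4.3.3) with TMM factors, all 12 libraries and a term for group. Genes with at least 10 counts in sum were tested by two-sided quasi-likelihood F tests, adjusted by Benjamini-Hochberg over 26688 genes and called under 0.05; the fit was tested on simulated data. Gene tables and plots were made with Python 3.11.15, numpy 2.4.6, pandas 2.3.3 and matplotlib 3.10.9. Alternatives were RLE and upper-quartile factors, no filter (at least 1 count), filterByExpr, DESeq2 1.42.0, limma-voom (limma 3.58.1), a fit of the libraries compared, a replicate block and each library left out.

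Named members were the 10 highest and 10 lowest called in triple KD, 5 and 5 in each single knockdown, the 5 highest and 5 lowest per kb, up to 4 called genes per list with the largest change, called pseudogenes and close opposite-strand neighbours of members named for triple KD. IMMT, REEP1, MRPS9, MRPS10 and other members given as ranges were added after their values were seen, as were the extremes of the comparisons between knockdowns. Members and lists were chosen with earlier results of these data known.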

Additional observations from a re-analysis of the deposited data

How the results depend on the processing

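Of 38 results on named members, each under 20 alternatives (760 values), 702 kept their direction and call, 58 lost the call and 0 reversed, and 28 results kept every call. With upper-quartile factors, triple KD had 26 members higher (median -0.009), SLTM KD 3 lower (median -0.008), triple KD against SAFB1 KD 14 higher (median -0.027), and SAFB1 KD against SLTM KD 14 higher and 8 lower (median 0.041), while other scalings moved no count of members past 1.5 times. No count filter gave 3 higher in SAFB1 KD, and the fit of only the libraries compared gave 4 lower in SLTM KD. With 1 library left out, higher and lower members ranged from 13 to 19 and 26 to 32 in triple KD, 2 to 8 and 4 to 8 in SAFB1 KD, 1 to 3 and 4 to 9 in SLTM KD, 5 to 9 and 25 to 35 in triple KD against SAFB1 KD, 16 to 22 and 19 to 24 against SLTM KD, and 14 to 25 and 4 to 6 between the single knockdowns. The medians ranged from -0.055 to -0.016, 0.017 to 0.029, -0.036 to -0.022, -0.068 to -0.034, -0.017 to 0.022 and 0.037 to 0.069 in the same order. The cause of these shifts was not tested. Replicate numbers name samples only: same-numbered libraries correlated between -0.044 and 0.20 (median 0.12, 18 pairs), and 10 of 12 correlated best with their own number, a hint from the data and not the design. The replicate block gave 13 members lower in SLTM KD against 8 without it, and moved no other count of members past 1.5 times. Depth limits the low members: MRPS24, with 23 to 40 counts per library, had a standard error of 0.231 on the log2 scale against 0.0238 for MRPS7.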
